A study of Homo sapiens with 9 samples.

Results

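The comparison described here set resistant NCI-H358-R cells on sotorasib against the same resistant cells off the drug, using 6 of the 9 libraries of the series. NCI-H358 is an established human lung cancer cell line, and NCI-H358-R is a derivative of it that was kept in 250 nM sotorasib for about 2 months, until it grew readily in the drug. The on-drug group was 3 libraries of NCI-H358-R profiled 4 days after dosing with 250 nM sotorasib, and the off-drug group was 3 libraries of NCI-H358-R without sotorasib. All cells grew in RPMI-1640 with 10% fetal bovine serum. The time for which sotorasib had been withdrawn is not stated in the labels. The 3 libraries of untreated, sotorasib-sensitive parental NCI-H358 entered the fit and are used below only for levels. NCI-H358-R is a single derivative, so the values describe that derivative. The labels call the libraries biological replicates without naming separate cultures, so a p-value measures spread among these libraries alone, some of which may be technical.

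Members were all genes in the deposited table of estimated counts. Of 60230 genes, 17307 passed the filter on low counts and were tested. Within them the description turns on transcription factors, secreted proteins and surface proteins, of which 1445 were tested from lists of 693, 829 and 1095 genes, and on genes that were near 0 off drug and present on drug.

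Sotorasib is a covalent inhibitor of a mutant RAS protein. RAS passes signals from receptor tyrosine kinases through RAF and MEK to the kinase ERK, which raises transcription of early response factors of the AP-1, ETS and EGR families, of feedback inhibitors, and of growth factors that act on the secreting cell. Lung epithelial cells also carry lineage factors, among them NKX2-1 and the FOXA proteins, that hold airway and alveolar gene programmes, and they build their attachment to matrix and to each other from integrins, laminins, cadherins and claudins.

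Total counts per library, in units of 1e6, were 25.73 to 33.99 off drug and 33.39 to 34.73 on drug, and 3 counts in a library correspond to 0.0776 to 0.123 counts per 1e6 counts (CPM, after TMM scaling). The on-drug libraries stood apart, with counts for 24189 to 24360 genes against 22079 to 22720 off drug and TMM scaling factors of 1.113 to 1.124 against 0.917 to 0.95. Log CPM values correlated across genes at r = 0.987 to 0.991 within the groups and at 0.928 to 0.93 between them. All 8 epithelial marker genes were at 1 CPM or more in every library, and their summed level was 7320 to 7506 CPM off drug and 4472 to 5278 CPM on drug. The summed level of 10 target genes of ERK signalling was 3222 to 3313 CPM off drug and 329 to 354 CPM on drug. Of these, DUSP6, a phosphatase that turns ERK off, fell in the test (log2 fold change -3.73 ± 0.10). Fold changes below are log2 values of on drug over off drug, with standard errors, and adjusted p-values are from edgeR's quasi-likelihood test with Benjamini-Hochberg adjustment over all genes tested. Genes described as rising or falling passed at an adjusted p under 0.05. The highest value among all named genes that passed was 0.003, counting those described below without a test.

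On drug 5431 genes were called higher, 31.4% of those tested, and 5403 were called lower, 31.2%. At least 2-fold changes made up 13.5% of genes tested in the higher direction (2337 genes) and 11.3% in the lower (1963 genes). This balance rests on the scaling: calls were 50.1% higher with TMM, 60% with upper-quartile factors, 64% on log2(TPM + 1) and 68.5% with library size alone, which moved the median over all genes from 0.02 to 0.27. Among 430 transcription factor genes, 133 rose and 173 fell (180 and 127 with library size alone, which turns the order), and 17.9% and 16.7% changed at least 2-fold. Among 391 secreted genes, 147 rose and 140 fell, and 25.6% and 26.6% changed at least 2-fold. Among 624 surface genes, 223 rose and 214 fell, and 23.4% and 20.8% changed at least 2-fold. Each class thus held many genes of both directions, and the families below are described one by one. Every family count below is to be read beside the 31.4% called higher and 31.2% called lower over all genes tested. A count near these shares is no result about its family. Of the genes tested, 340 had under 10 counts in every off-drug and parental library and 36 in every on-drug and parental library. These passed the filter through the other group, so those of them named below are given by their levels without a test. Their direction was set by the filter, and 293 of the 340 and all of the 36 were called. The counts of all genes and of classes and families include them. In these bulk libraries, fewer cells with a transcript and less of that transcript per cell cannot be told apart.

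**Figure D1:**
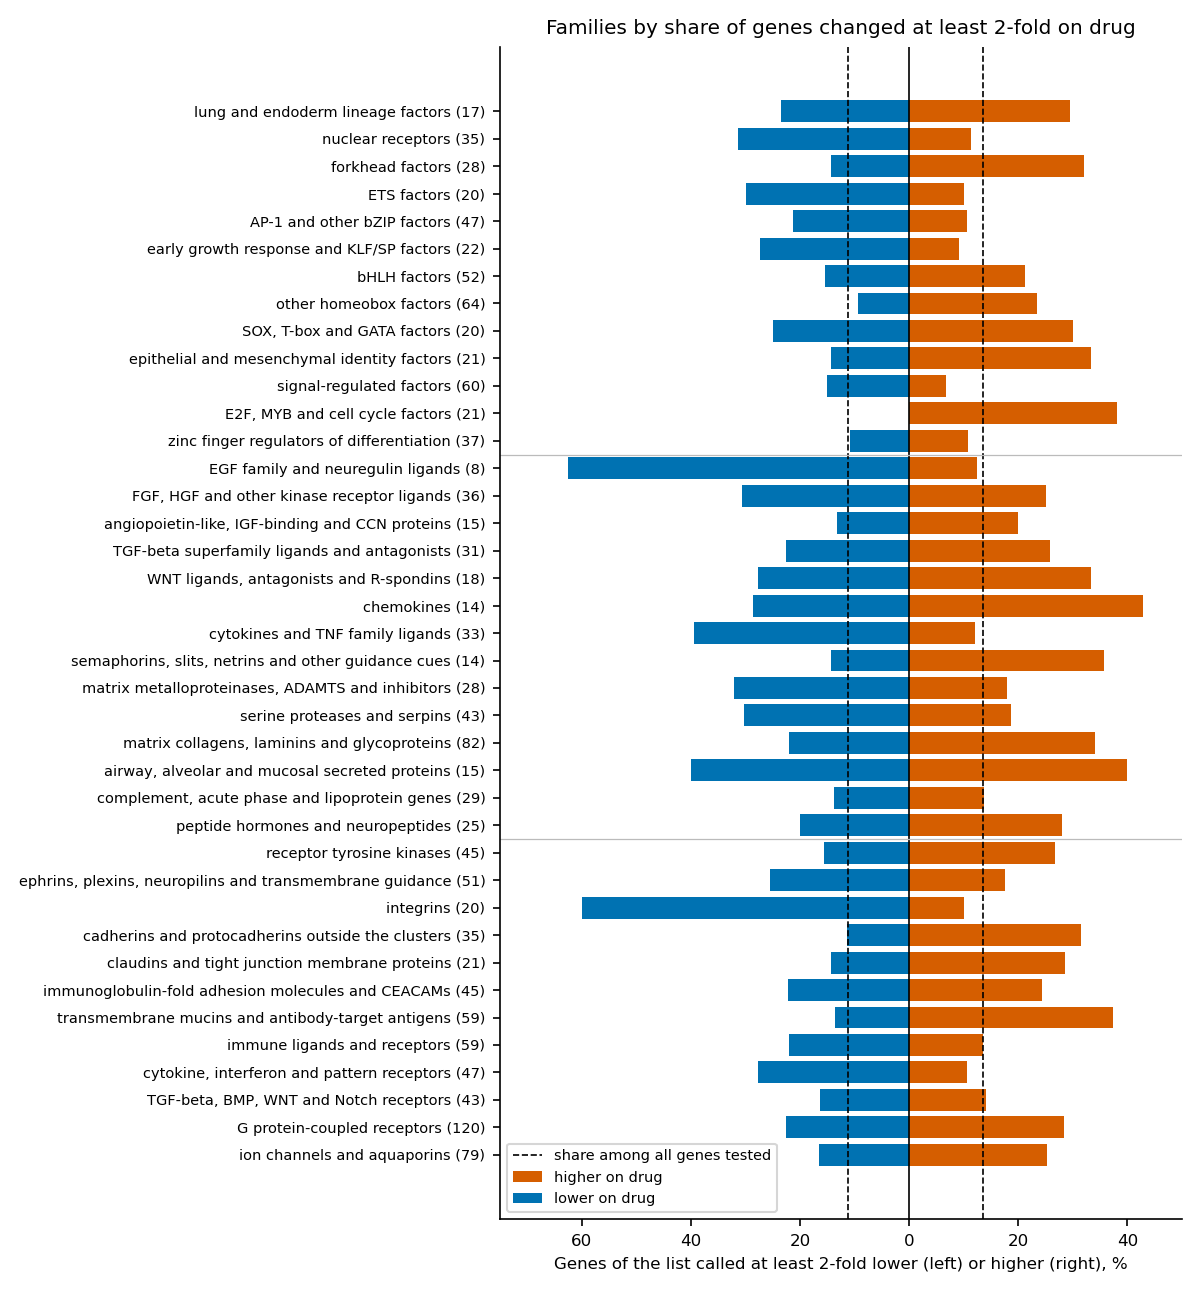
Share of the genes of each family called at least 2-fold lower (left, blue) or higher (right, orange) on drug, in percent of the family's tested genes, whose number is in parentheses; families with at least 8 tested genes are drawn and dashed lines mark the shares among all genes tested (11.3% and 13.5%). Integrins (60% lower) and EGF family ligands (62.5% lower) reach farthest left, while E2F and MYB factors have no gene on the left side.

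Among transcription factors, the small helix-loop-helix regulators of the ID family, which in many cell types respond to bone morphogenetic proteins, rose on drug. ID4, which binds and silences other helix-loop-helix factors, was at 11.8, 11.1 and 10.5 CPM in the 3 off-drug libraries and 154, 143 and 173 on drug (log2 fold change 3.82 ± 0.10). ID2 went from 3.73, 2.99 and 4.01 to 44.3, 49.1 and 45.02 CPM (3.68 ± 0.11). ID3 went from 25.3, 20.8 and 26.8 to 178, 188 and 192 CPM (2.93 ± 0.11). Off-drug and on-drug libraries did not overlap for any of these, which the rule for named genes required. The off-drug levels lay near the parental means of 14.2, 4.52 and 33.0 CPM. ID1, added after its values were seen, rose less, by 0.94 ± 0.08. ATOH8, another helix-loop-helix factor, was nearly silent off drug (0.278, 0.287 and 0.353 CPM) and reached 7.66, 6.27 and 7.35 CPM on drug (4.50 ± 0.23). SMAD6, an inhibitor and known target of bone morphogenetic protein signalling, rose from 19.6 ± 1.36 to 77.9 ± 4.63 CPM (mean ± SD, n = 3, 1.99 ± 0.09). The wider family of helix-loop-helix factors did not share this direction: 18 of 52 rose and 23 fell (19 and 19 with library size alone).

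The lung lineage factors split. NKX2-1, the factor that marks alveolar and club cell identity, was at 32.1, 30.6 and 29.4 CPM off drug and 135, 123 and 144 on drug (2.13 ± 0.09), above the 65.2 ± 2.58 CPM of parental cells. FOXA1, a forkhead pioneer factor of lung and gut epithelium, was at 31.2, 35 and 34.6 CPM off drug and 139.5, 122 and 139 on drug (1.99 ± 0.10). Its relative FOXA2 moved the other way, from 60.3, 61.99 and 59.5 to 16.2, 12.8 and 18.3 CPM (-1.94 ± 0.11). SPDEF, which drives goblet cell secretion, fell from 18.02, 16.8 and 17.2 to 1.41, 1.21 and 1.71 CPM (-3.58 ± 0.13). In each case the on-drug libraries lay wholly outside the off-drug range, which the rule for named genes required. SOX9, a factor of distal lung progenitors, fell by 1.40 on the log2 scale, and SOX2, a factor of proximal airway added after its values were seen, rose by 1.25 ± 0.12 to a mean near that of parental cells (37.5 ± 4.502 against 42.1 ± 2.02 CPM). Of 17 lineage factors tested 8 rose and 6 fell (47.1% and 35.3%, beside 31.4% and 31.2% of all genes). Among 28 forkhead factors 11 rose and 8 fell (39.3% and 28.6%), with FOXO6 (1.97) among the rises and FOXD1 (-1.77) among the falls.

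Of 21 factors of epithelial and mesenchymal identity 11 rose and 5 fell. The list holds factors of both identities, and the 8 epithelial marker genes did not rise as a set: 1 rose and 4 fell (median -0.31), and their summed level was lower on drug, as given above. The grainyhead factors, which switch on genes of the epithelial barrier, were among the rises. GRHL3 was at 0.516, 1.19 and 0.514 CPM off drug and 17, 11.9 and 15.9 on drug (4.36 ± 0.24). GRHL1 was at 5.08, 5.73 and 4.49 CPM off drug and 47.8, 43.04 and 44.2 on drug (3.15 ± 0.10). Both exceeded the parental means, which were 0.759 ± 0.102 and 13.2 ± 0.374 CPM (mean ± SD, n = 3). TP73, a relative of the squamous and basal cell factors, rose by 2.01 on the log2 scale, and KLF4, a factor of epithelial differentiation, fell from 80.3, 79.9 and 84.9 to 21.7, 21.5 and 22.8 CPM (-1.89 ± 0.08). Named after their values were seen, the epithelial ETS factor ELF3 rose from 95.4 ± 3.92 to 301 ± 28.6 CPM (1.66 ± 0.09), and the mesenchymal repressors ZEB1 and SNAI2 fell by 1.82 and 1.29 on the log2 scale, ZEB1 to 4.73 ± 0.886 CPM against 1.88 ± 0.475 CPM in parental cells. EHF, an epithelial ETS factor with the highest CPM of this list's genes that missed the threshold, was at 17.1, 19.7 and 18.3 CPM off drug and 20.1, 18.8 and 20.8 on drug, and these ranges overlapped (adjusted p = 0.28, edgeR).

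E2F and MYB factors, which drive genes of DNA replication and mitosis, rose in 11 of 21 cases and fell in 4. These shares were 52.4% and 19%, beside 31.4% and 31.2% of all genes, and no member fell 2-fold or more. MYBL2 was at 23.2, 21.2 and 21.7 CPM off drug and 139, 132 and 152 on drug (2.68 ± 0.09). E2F1 was at 10.2, 9.74 and 9.82 CPM off drug and 45.9, 47.1 and 58.2 on drug (2.34 ± 0.14). MYB was below 1 CPM in every off-drug library and at 5.99, 5.73 and 6.18 CPM on drug (2.80 ± 0.23). On-drug levels of MYBL2 and E2F1 also exceeded the parental means of 12.7 and 4.39 CPM. E2F2 rose by 3.67 ± 0.19.

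The AP-1, ETS and EGR families, which are known to be fed by ERK signalling, held more genes that fell than rose with TMM scaling. Of 47 AP-1 and other bZIP factors 25 fell and 9 rose (53.2% and 19.1%), and with library size alone 20 fell and 11 rose. Of 20 ETS factors 12 fell and 4 rose, and of 22 EGR, KLF and SP factors 11 fell and 5 rose, but with library size alone these counts were 7 against 6 and 9 against 8. FOSL1, an AP-1 subunit stabilised and induced by ERK, was at 672, 648 and 663 CPM off drug and 60.1, 50.95 and 54.3 on drug (-3.58 ± 0.09); the on-drug level was below the 77 ± 4.302 CPM of parental cells. ETV1, an ETS factor, was at 82.9, 79.8 and 78.3 CPM off drug and 7.48, 7.03 and 6.701 on drug (-3.51 ± 0.11). KLF2, a zinc finger factor, was at 13.5, 10.97 and 11.1 CPM off drug and 0.942, 0.942 and 1.11 on drug (-3.56 ± 0.17). The groups did not overlap for these 3 genes, as the rule for named genes required. FOSB (-2.82), MAFF (-2.36), KLF9 (-2.22) and EGR1 (-1.56) fell with them, as did DDIT3 (-2.94), a bZIP factor of the stress response. KLF6, the gene of its list with the highest CPM among those not called, was at 74.7, 68.6 and 72.3 CPM off drug and 77.3, 75.7 and 75.8 on drug (adjusted p = 0.36, edgeR).

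Nuclear receptors, which read hormones, retinoids and lipids, fell in 20 of 35 cases, 11 of them at least 2-fold, and rose in 6 (57.1% and 17.1%, beside 31.2% and 31.4% of all genes). The counts rest on the scaling, with 13 lower and 10 higher with library size alone and 10 lower and 6 higher on log2(TPM + 1), where genes of low TPM were left out. NR1D1, the heme-binding clock repressor, was at 75.5, 74.8 and 76.1 CPM off drug and 12.2, 10.7 and 13.8 on drug (-2.63 ± 0.09). RARG, a retinoic acid receptor, was at 241, 244 and 237 CPM off drug and 63.1, 61.5 and 69.96 on drug (-1.89 ± 0.08). NR5A2 (-1.69) and NR4A1 (-1.65) fell as well, and the orphan receptor NR2F6 did not pass the test (0.15, adjusted p = 0.22, edgeR). The estrogen receptor gene ESR2 was the single gene on the transcription factor lists that appeared on drug, as described below.

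Homeobox factors outside the HOX clusters rose in 23 of 64 cases and fell in 19 (35.9% and 29.7%), shares near those of all genes. PKNOX2, a TALE class factor, was at 7.02, 6.26 and 5.91 CPM off drug and 0.157, 0.0269 and 0.103 on drug (-5.99 ± 0.28). LHX1, a LIM homeobox factor, was at 18.3, 18.3 and 18.3 CPM off drug and 2.197, 2.31 and 2.51 on drug (-2.97 ± 0.12). PRDM8 (-2.54) and SOX13 (-2.11) fell, and CASZ1 (2.13), a zinc finger factor of differentiation, and DLX4 (2.07) rose. Of 60 signal-regulated factors 13 rose and 26 fell, an order that turned with library size alone (21 and 17), and of 37 zinc finger regulators of differentiation 12 rose and 14 fell.

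**Figure D2:**
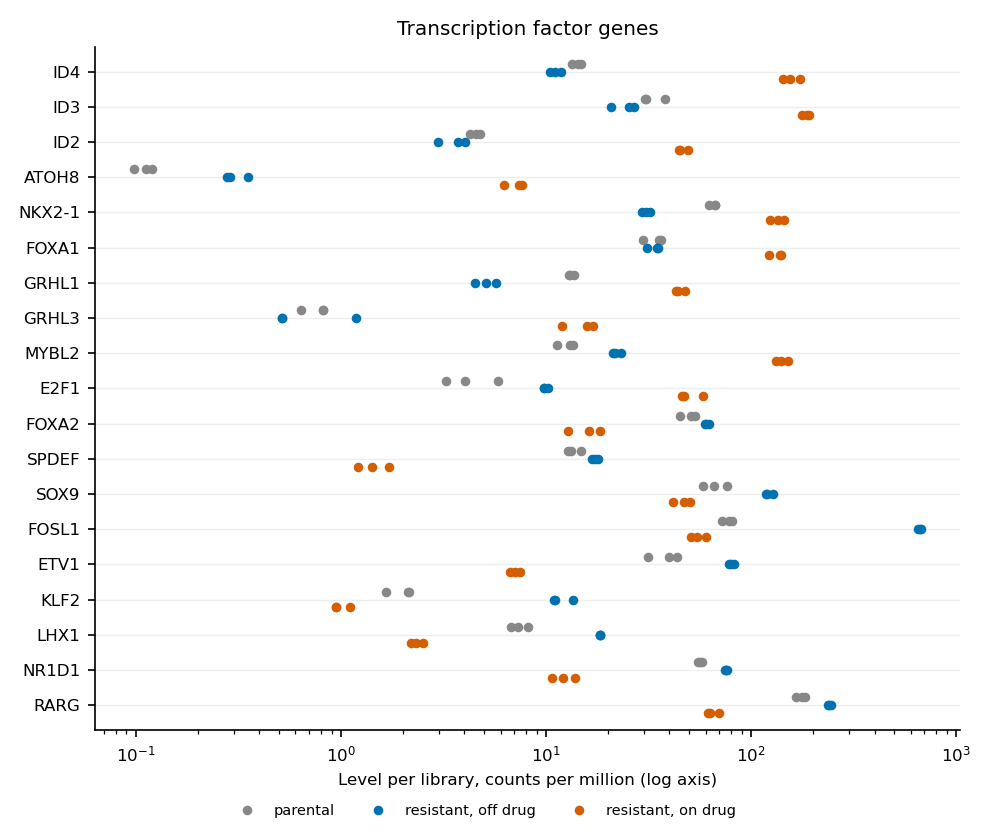
Levels of 19 transcription factor genes in each of the 9 libraries, in CPM on a log axis; each point is 1 library, in grey for parental, blue for resistant off drug and orange for resistant on drug. In each row the orange points lie wholly to the right (ID4 to E2F1) or wholly to the left (FOXA2 to RARG) of the blue points. The rule for named genes required this separation.

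Promoter sequence was read for members of these groups, because AP-1 and E2F factors bind short sites near the starts of genes. RefSeq promoters (GRCh38.p14, 250 bases before to 50 after each gene's start) matched only 61.8% of the genes higher at least 2-fold and 65.7% of those lower at least 2-fold, so a comparison of motif shares between gene sets is void and none is given. Over all 27305 promoters of the table, 7.76% held the AP-1 motif TGANTCA on either strand and 1.83% held the E2F motif TTTNGCGC on either strand. The first 3 of the windows below belong to genes that were lower on drug (LAMA3, PTAFR, ADGRL4), the next 3 to genes that were higher on drug (MMP7, CXCL14, F2RL2), and the last 2 to E2F1 and E2F2. Each shows the 130 bases before the start, 5′ to 3′ on the gene's strand, with motif matches in capitals, overlapping matches on opposite strands included.
LAMA3, chr18:23872890-23873019, plus strand: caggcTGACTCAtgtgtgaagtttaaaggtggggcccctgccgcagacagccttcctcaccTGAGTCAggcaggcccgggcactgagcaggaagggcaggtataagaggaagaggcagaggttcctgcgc
PTAFR, chr1:28193857-28193986, minus strand: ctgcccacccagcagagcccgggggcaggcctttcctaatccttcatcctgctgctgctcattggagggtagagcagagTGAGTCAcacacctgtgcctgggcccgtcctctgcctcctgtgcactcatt
ADGRL4, chr1:79006731-79006860, minus strand: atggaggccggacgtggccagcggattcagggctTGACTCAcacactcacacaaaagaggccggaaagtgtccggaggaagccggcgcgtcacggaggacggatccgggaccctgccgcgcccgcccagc
MMP7, chr11:102530748-102530877, minus strand: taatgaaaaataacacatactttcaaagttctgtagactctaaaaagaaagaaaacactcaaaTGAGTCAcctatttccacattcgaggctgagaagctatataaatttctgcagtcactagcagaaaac
CXCL14, chr5:135578992-135579121, minus strand: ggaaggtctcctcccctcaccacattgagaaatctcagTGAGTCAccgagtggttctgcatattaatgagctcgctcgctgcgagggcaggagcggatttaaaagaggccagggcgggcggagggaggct
F2RL2, chr5:76623404-76623533, minus strand: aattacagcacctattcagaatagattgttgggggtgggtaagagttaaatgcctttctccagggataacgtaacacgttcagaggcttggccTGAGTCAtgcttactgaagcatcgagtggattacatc
E2F1, chr20:33686386-33686515, minus strand: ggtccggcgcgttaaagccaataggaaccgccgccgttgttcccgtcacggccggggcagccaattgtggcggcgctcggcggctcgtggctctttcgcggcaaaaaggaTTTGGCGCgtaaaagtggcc
E2F2, chr1:23531234-23531363, minus strand: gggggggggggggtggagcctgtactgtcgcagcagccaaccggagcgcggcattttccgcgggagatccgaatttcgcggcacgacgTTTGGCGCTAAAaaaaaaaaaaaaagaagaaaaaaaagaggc
The 8 genes shown were picked without a rule, and each window holds a match. The AP-1 match stood in chosen promoters of genes of both directions, at 2 places in that of LAMA3. The choice fixed this outcome, so it does not show how often a match occurs in either direction. The capitals in E2F2 hold 2 overlapping E2F matches, 1 on each strand. A match is a description of letters in a window and does not show that a factor bound there.

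Of 8 secreted growth factors of the EGF family tested 5 fell, all at least 2-fold, 1 rose and 2 were not called. TGFA, a ligand of the EGF receptor, was at 97.9, 103 and 97.6 CPM off drug and 10.2, 9.905 and 11.1 on drug (-3.26 ± 0.09), against 191 ± 9.26 CPM in parental cells. HBEGF, a heparin-binding ligand of the same receptor, was at 46.5, 45.7 and 45.5 CPM off drug and 8.32, 8.96 and 10.2 on drug (-2.33 ± 0.09). AREG, EREG and EPGN made up the other falls, with log2 fold changes of -4.81, -4.26 and -1.21. The ligand that rose was NRG1, which acts through ERBB3 and ERBB4: it was at 10.1, 12.4 and 10.3 CPM off drug and 24.2, 22.99 and 23.7 on drug (1.11 ± 0.10). EPGN and NRG1 were named after their values were seen. BTC, another EGF receptor ligand, was at 5.83, 4.58 and 6.002 CPM off drug and 5.701, 6.78 and 5.46 on drug (adjusted p = 0.46, edgeR).

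Ligands of other kinase receptors divided evenly, with 14 of 36 higher and 14 lower. FGF9, a fibroblast growth factor of lung mesothelium and epithelium, went from 0.436, 0.532 and 0.417 to 5.05, 4.93 and 5.304 CPM (3.46 ± 0.24). PDGFD, a platelet-derived growth factor, went from 2.62, 2.29 and 1.99 to 17.1, 17.2 and 15.3 CPM (2.85 ± 0.13). The groups lay apart for both, as the rule for named genes required. The largest falls on this list were in FGF19 (-7.44) and VEGFA (-3.55). Of 15 IGF-binding, angiopoietin-like and CCN proteins 6 rose and 3 fell. Among carriers of insulin-like growth factors, IGFBP3 rose from 55.6 ± 4.93 to 203 ± 17.7 CPM (mean ± SD, n = 3, 1.87 ± 0.09) and IGFBP6 fell from 94.8 ± 0.285 to 21.1 ± 0.314 CPM (-2.17 ± 0.12), while IGFBP2 rose by 1.33 and ANGPTL4, an inhibitor of lipoprotein lipase, fell by 3.33 on the log2 scale.

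TGF-beta superfamily ligands and their antagonists rose in 15 of 31 cases and fell in 10 (48.4% and 32.3%, beside 31.4% and 31.2% of all genes). INHBA, the activin A subunit, was at 92.8, 93.5 and 88.05 CPM off drug and 5.91, 6.14 and 6.73 on drug (-3.87 ± 0.10), both above the 0.7605 ± 0.176 CPM of parental cells. LTBP1, which anchors latent TGF-beta in matrix, fell from 98.4 ± 4.57 to 16.6 ± 0.853 CPM (-2.57 ± 0.08), and BMP3 rose by 2.15 ± 0.19. GDF15, a stress-induced member, fell by 4.76 on the log2 scale. WNT7A, a ligand of epithelial origin, was at 44.5, 42.4 and 41.7 CPM off drug and 0.654, 0.404 and 0.699 on drug (-6.18 ± 0.14), and parental cells had 8.39 ± 0.597 CPM. WNT9A fell (-2.14 ± 0.08) and WNT5A, a ligand of non-canonical signalling, rose (1.19 ± 0.12); 6 of 18 genes of this list rose and 6 fell.

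Cytokines fell far more often than they rose, 17 of 33 against 5, and 13 fell at least 2-fold (39.4%, beside 11.3% of all genes). CSF2, the granulocyte-macrophage growth factor, was at 10.8, 8.47 and 9.21 CPM off drug and 0.183, 0.135 and 0.155 on drug (-5.87 ± 0.24). SPP1, the matrix cytokine osteopontin, was at 63.4, 69.1 and 64.6 CPM off drug and 2.85, 3.96 and 3.49 on drug (-4.26 ± 0.11), and parental cells had 308 ± 15.7 CPM. LIF was at 158, 168 and 163 CPM off drug and 14.6, 16.8 and 17.5 on drug (-3.32 ± 0.09). The on-drug level lay below the parental mean for each of these 3 genes. IL36RN, an antagonist of the interleukin 36 receptor, went the other way, from 1.15, 1.97 and 2.12 to 11.6, 11.1 and 13.1 CPM (2.76 ± 0.18).

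Chemokines moved both ways, with 6 of 14 higher and 5 lower (42.9% and 35.7%, beside 31.4% and 31.2% of all genes). CXCL14, an epithelial chemokine, was at 0.198, 0.287 and 0.257 CPM off drug and 8.68, 9.905 and 8.82 on drug, and had 0 counts in all 3 parental libraries. CXCL16, which also exists as a membrane-bound form, rose (2.82 ± 0.31). CCL22 and CCL26, which attract T helper cells and eosinophils, fell by 3.91 and 3.6 on the log2 scale, to 0.586 ± 0.207 and 0.403 ± 0.0369 CPM (mean ± SD, n = 3).

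Of 82 matrix genes, the most tested on any secreted list, 41 rose and 22 fell (50% and 26.8%, beside 31.4% and 31.2% of all genes). At least 2-fold changes made up 34.1% and 22%, beside 13.5% and 11.3% of all genes. The higher share was larger on the shorter lists of chemokines (42.9%), airway products (40%) and secreted guidance proteins (35.7%). LUM, the collagen-binding proteoglycan lumican, was at 2.62, 1.39 and 2.15 CPM off drug and 72.6, 109.8 and 85.5 on drug (5.43 ± 0.19). COL4A4, a basement membrane collagen chain, was at 0.595, 0.614 and 0.674 CPM off drug and 8.55, 7.21 and 8.44 on drug (3.67 ± 0.20). COL13A1, a transmembrane collagen, fell from 49.8, 49.9 and 45.03 to 5.57, 4.25 and 5.36 CPM (-3.25 ± 0.12). LAMA3, a chain of the laminin to which epithelial cells attach, fell by 4.58 on the log2 scale. Markers of fibroblasts include matrix genes, LUM and COL3A1 among them, so they are not separate from this result. The summed level of 8 markers was 18.3 to 18.8 CPM off drug and 127 to 158 CPM on drug. LUM was most of the sum on drug and a small part of it off drug. Of 7 markers tested 5 were called at least 2-fold higher (71.4%, beside 13.5% of all genes) and 0 lower. The 7 include COL3A1, whose direction was set by the filter. PDGFRA and DCN were below 1 CPM in both groups and COL3A1 was at 0 off drug. The part of other cells in the matrix result was not tested.

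Matrix proteases and their inhibitors moved both ways, with 9 of 28 higher and 10 lower (32.1% and 35.7%), shares near those of all genes. MMP7, the matrilysin of glandular epithelium, was at 10.1, 8.23 and 10.9 CPM off drug and 97.7, 102 and 93.2 on drug (3.32 ± 0.10). MMP9 fell from 27.2, 26.1 and 28.4 to 3.11, 3.203 and 3.34 CPM (-3.08 ± 0.13), MMP1 fell by 5.51 on the log2 scale, and ADAMTS1 rose by 2.68 ± 0.16. Serine proteases and serpins fell in 22 of 43 cases and rose in 14 (51.2% and 32.6%, beside 31.2% and 31.4% of all genes). PRSS22 was at 193, 186 and 208 CPM off drug and 20.4, 17.04 and 20.4 on drug (-3.34 ± 0.13). PLAU, the urokinase that activates plasmin, was at 1451, 1423 and 1490 CPM off drug and 316, 278 and 299 on drug (-2.29 ± 0.09), and PLAT, the tissue-type activator, fell as well (-2.20 ± 0.10). TMPRSS2, a membrane protease of airway cells, rose from 3.21, 3.77 and 4.14 to 32.98, 26.9 and 32.2 CPM (3.04 ± 0.12).

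Airway and mucosal products were mostly under the filter: 15 of 68 were tested, of which 7 rose and 7 fell. BPIFB4, of the bactericidal lipid-binding family, was at 16.4, 14.4 and 14.4 CPM off drug and 132, 131 and 123 on drug (3.10 ± 0.09), and at 0.0882 ± 0.0483 CPM in parental cells. MUC5AC, the gel-forming mucin of goblet cells, fell by 2.53 on the log2 scale to 1.15 ± 0.0851 CPM (mean ± SD, n = 3). CP, the ferroxidase ceruloplasmin, rose (3.95 ± 0.46), although off-drug replicate 2 (0.119, 1.31 and 0.0321 CPM in the 3 libraries) stood above the other two. Of 29 complement, acute phase and lipoprotein genes 9 rose and 6 fell. The complement regulator CFI rose from 10.03 ± 1.02 to 66.5 ± 7.52 CPM (mean ± SD, n = 3). LIPG, endothelial lipase, fell by 3.36. Of 25 peptide hormones 8 rose and 7 fell. Among these EDN1, the vasoconstrictor endothelin, was at 1.39, 1.27 and 1.28 CPM off drug and 15.1, 13.3 and 12.5 on drug (3.37 ± 0.17), NMU rose (2.07), and the stress-induced STC2 fell (-2.19). CGB5, a subunit of chorionic gonadotropin, rose (3.31 ± 0.13) but has near-identical copies with which reads may be divided, which makes the value uncertain.

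**Figure D3:**
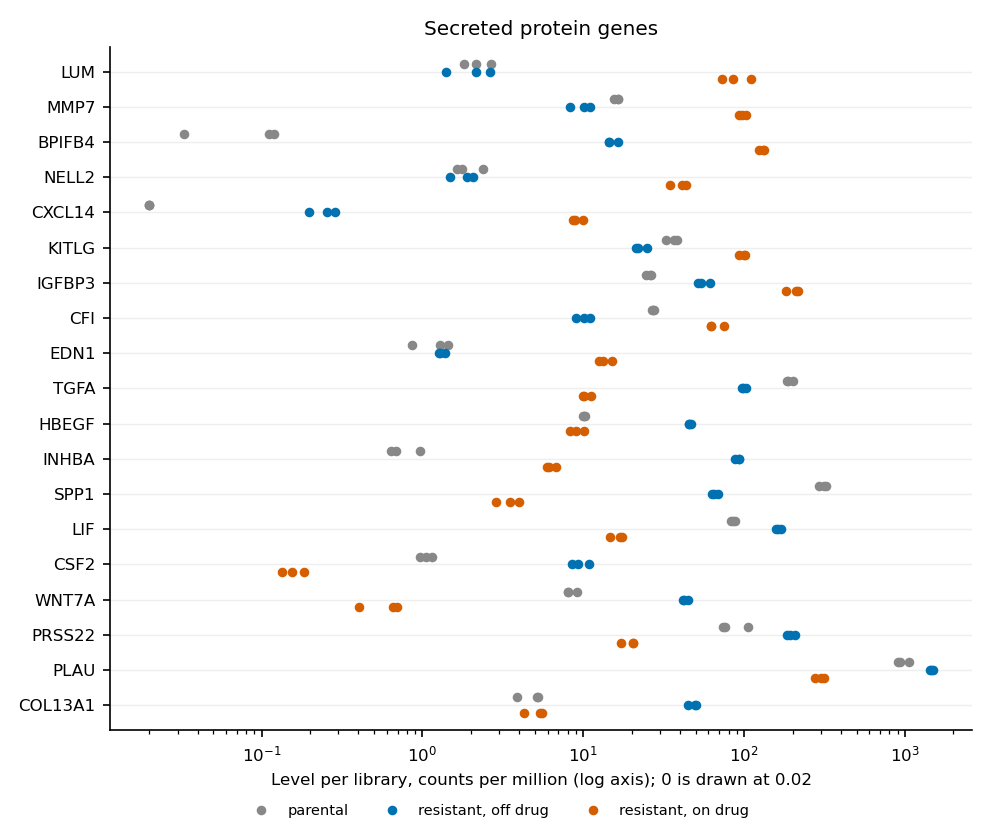
Levels of 19 secreted protein genes in each of the 9 libraries, in CPM on a log axis; each point is 1 library, coloured by group as named in the key, and a level of 0 is drawn at 0.02. The first 9 rows (LUM to EDN1) have on-drug points to the right of off-drug points and the other 10 have them to the left, and BPIFB4 and CXCL14 have their parental points farthest left.

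Integrins, the receptors that bind cells to matrix, mostly fell. Of 20 tested 14 fell, 12 of them at least 2-fold (60%, beside 11.3% of all genes), and the median log2 fold change was -1.54. ITGA2, the collagen-binding alpha subunit, was at 95.3, 100.1 and 87.98 CPM off drug and 9.65, 7.46 and 7.81 on drug (-3.51 ± 0.14). ITGA5, the fibronectin-binding subunit, was at 50.6, 51.8 and 50.4 CPM off drug and 4.79, 3.85 and 5.69 on drug (-3.41 ± 0.12), near the 7.34 ± 0.545 CPM of parental cells. ITGA10, another collagen-binding subunit, fell to below 1 CPM, from 8.21, 7.45 and 7.42 to 0.314, 0.242 and 0.233 CPM (-4.85 ± 0.23), and ITGA6, a subunit of laminin receptors, fell by 3.65 on the log2 scale. The integrins that rose were ITGAV (0.84) and ITGB8 (2.28), which pair in a receptor that activates latent TGF-beta, and ITGAE (0.90). A 4th integrin counted as higher, ITGA9, was near 0 off drug and passed the filter through the on-drug group. It is described below without a test. Apart from ITGA9, these were named after their values were seen.

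Cadherins rose in 18 of 35 cases and fell in 5 (51.4% and 14.3%, beside 31.4% and 31.2% of all genes). Tight junction proteins rose in 11 of 21 cases and fell in 4 (52.4% and 19%). PCDH19, a protocadherin known from neurons, was at 1.19, 2.33 and 1.605 CPM off drug and 42.3, 32.97 and 39.2 on drug (4.49 ± 0.17). PCDH7 was at 3.61, 4.26 and 4.97 CPM off drug and 41.2, 32.2 and 37.7 on drug (3.10 ± 0.13). PCDH20 (1.75) and the desmosomal cadherin DSC2 (1.21) rose less. Of the junction proteins, CLDN1 rose from 4.58 ± 0.363 to 18.7 ± 2.98 CPM (mean ± SD, n = 3, 2.03 ± 0.14), CLDN23 (2.20) and MARVELD3 (1.90) rose with it, and CLDN4, an abundant claudin, was at 305, 325 and 314 CPM off drug and 365, 327 and 404 on drug and was not called (adjusted p = 0.11, edgeR). ESAM, a junction molecule known from endothelium, fell from 15.7, 16.1 and 16.9 to 0.863, 0.565 and 0.699 CPM (-4.51 ± 0.18). ESAM is 1 of 8 endothelial markers, whose summed level was 53.1 to 54.7 CPM off drug, 15.2 to 20 CPM on drug and 11.2 to 13.9 CPM in parental cells. Of 6 tested 4 fell and 2 rose, and 4 were at 1 CPM or more in every off-drug library. PECAM1 was at 4.67 to 5.39 CPM off drug and had at most 6 counts in an on-drug library, while EMCN was at 0 in all groups. The part of other cells in these values was not tested.

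Membrane mucins and tumour antigens rose in 30 of 59 cases, 22 of them at least 2-fold (37.3%, beside 13.5% of all genes), and fell in 16. CD24, a heavily glycosylated surface antigen from the adhesion list, was at 123, 125 and 125 CPM off drug and 975, 946 and 976 on drug (2.96 ± 0.07), with a parental mean of 222 ± 3.62 CPM. MUC15, a transmembrane mucin, was at 0.0397, 0.205 and 0.257 CPM off drug and 12.7, 10.8 and 11.9 on drug (6.06 ± 0.26). GPNMB, a melanosomal and lysosomal glycoprotein, was at 0.913, 1.47 and 0.449 CPM off drug and 27.9, 22.9 and 24.7 on drug (4.78 ± 0.22). Each of these 3 on-drug ranges lay above the off-drug and the parental values. STEAP4, a metalloreductase, rose from 1.48 ± 0.406 to 29.7 ± 1.06 CPM (4.34 ± 0.17) and MUC21 was at 0.206 ± 0.135 CPM off drug and 4.88 ± 1.09 on drug. On the adhesion list 16 of 45 genes rose and 19 fell (19 and 15 with library size alone). Of these NRCAM rose (3.26), and CNTN1 (-2.98) and CEACAM1 (-2.74) fell.

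Immune ligands and receptors fell in 29 of 59 cases and rose in 9 (22 and 17 with library size alone). VTCN1, the inhibitory ligand B7-H4, was near 0 off drug and is described without a test: its counts were 0, 0 and 5 in the off-drug libraries and 445, 382 and 370 on drug, or 11.6, 10.3 and 9.57 CPM. CD274, the inhibitory ligand PD-L1, fell, from 64.9, 70.3 and 65.5 to 10.4, 10.2 and 8.46 CPM (-2.79 ± 0.12), below the 25.2 ± 3.98 CPM of parental cells. NGFR, the low-affinity neurotrophin receptor, fell by 3.53 on the log2 scale. Cytokine and pattern receptors fell in 21 of 47 cases and rose in 10 (17 and 16 with library size alone). PTAFR, the receptor for platelet-activating factor, was at 40.8, 43.8 and 40.7 CPM off drug and 0.968, 1.16 and 1.03 on drug (-5.31 ± 0.12), and IL15RA (-2.37) and IL20RB (-2.18) fell while IL17RB rose (2.86). The summed level of 8 leukocyte markers, 72.6 to 77 CPM off drug and 6.67 to 8.02 CPM on drug, was nearly all CD68, a lysosomal glycoprotein; CD3D and MS4A1 were at 0 in both groups.

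Receptor tyrosine kinases rose in 20 of 45 cases and fell in 12 (44.4% and 26.7%, beside 31.4% and 31.2% of all genes). EPHA2, an ephrin receptor, was at 1522, 1553 and 1539 CPM off drug and 238, 198 and 263 on drug (-2.72 ± 0.10), while its relative EPHA7 rose from 0.913, 0.696 and 0.706 to 6.43, 6.03 and 4.94 CPM (2.91 ± 0.26). FGFR3 rose (3.43 ± 0.14) and TIE1, a receptor known from endothelium and also an endothelial marker here, fell (-3.20 ± 0.17). Guidance receptors fell in 15 of 51 cases and rose in 20: PLXNA1 (-2.11), SEMA4B (-2.02) and SEMA5A (-2.66) fell, and FLRT2 rose (2.27). Of 14 secreted guidance proteins 6 rose and 6 fell. NELL2, a ligand of ROBO3, rose from 1.91, 1.47 and 2.05 to 43.6, 34.8 and 40.8 CPM (4.44 ± 0.15), SEMA3E rose (2.06) and SLIT2 fell (-1.35). Of 43 genes for receptors of developmental signals and their membrane ligands 15 rose and 16 fell (17 and 13 with library size alone). The Notch ligand JAG1 fell from 415 ± 30.02 to 85.9 ± 9.11 CPM (mean ± SD, n = 3, -2.27 ± 0.09), DNER and the TGF-beta co-receptor ENG fell (-2.20 and -2.39), and the WNT receptor FZD1 rose (1.84).

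Of 120 G protein-coupled receptors 45 rose and 42 fell (37.5% and 35%). Of 79 ion channels and aquaporins 25 rose and 21 fell (31.6% and 26.6%). These shares lay near the 31.4% and 31.2% of all genes. ANO1, a calcium-activated chloride channel of airway epithelium, was at 117, 117 and 112 CPM off drug and 2.83, 2.83 and 2.64 on drug (-5.38 ± 0.10), with 19.01 ± 0.774 CPM in parental cells. KCNF1, a potassium channel subunit, fell (-3.91 ± 0.20), SCN4A, a sodium channel, fell (-3.60 ± 0.20), and CACNA1D, a calcium channel, rose (2.95 ± 0.30). Of the receptors, F2RL2, which is cut by thrombin, was at 2.74, 3.11 and 4.24 CPM off drug and 16.3, 14.5 and 16.1 on drug (2.21 ± 0.17) and at 0.0267 ± 0.0463 CPM in parental cells. ADGRL3 rose (3.87 ± 0.31) and the prostaglandin receptor PTGER1 fell (-3.35 ± 0.36).

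**Figure D4:**
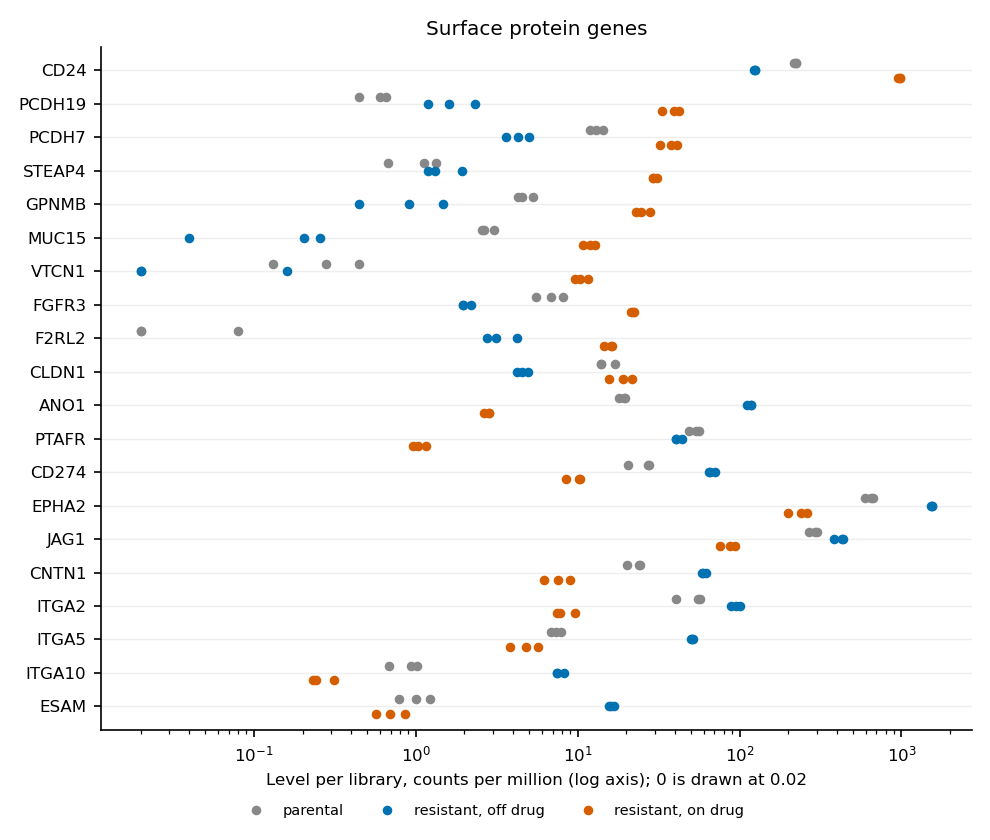
Levels of 20 surface protein genes in each of the 9 libraries, in CPM on a log axis; each point is 1 library, coloured by group as named in the key, and a level of 0 is drawn at 0.02. The first 10 rows (CD24 to CLDN1) have on-drug points to the right of off-drug points, and the other 10 (ANO1 to ESAM) have them to the left.

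A gene was said to appear on drug when it had at most 3 counts in each off-drug library and at least 1 CPM in each on-drug library. There were 28 such genes, of which 21 were protein-coding. Since the rule chose them by these levels, they are described without a test. Of the 28, 10 were on the lists of transcription factor, secreted or surface genes (35.7%, beside 8.35% of genes tested, with no test of the difference). In parental cells 16 of the 28 had at most 3 counts in every library, 2 were at 1 CPM or more in every library, and 10 lay between.

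CYP2F1, a cytochrome P450 expressed in lung, had the most counts, with 730, 536 and 703 counts on drug (19.1, 14.4 and 18.2 CPM) against 0, 1 and 2 counts off drug and 0 in each parental library. COL3A1, a fibrillar collagen and fibroblast marker, had 0 counts in all off-drug and parental libraries and 5.15, 4.36 and 4.53 CPM on drug, at least 38.1-fold higher when the off-drug level is put at its floor of 3 counts in a library. The other secreted genes were CXCL17, a mucosal chemokine (4.37, 4.12 and 3.98 CPM on drug), IGFBP5 (4.21, 3.28 and 4.32 CPM), the disulphide isomerase AGR3 (2.64, 4.199 and 3.804 CPM), COL24A1 and BMP5 (1.49, 1.29 and 1.37 CPM). The surface genes were ITGA9 (4.84, 3.39 and 3.65 CPM), the receptor tyrosine kinase EPHA10 (3.14, 3.12 and 3.13 CPM), and the inhibitory GABA receptor subunit GABBR2 (3.82, 4.14 and 4.58 CPM). ESR2, an estrogen receptor, reached 1.36, 1.104 and 1.34 CPM.

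Of genes outside the lists, PRR15L reached 7.87, 7.64 and 7.504 CPM, the small proteoglycan EPYC 2.54, 3.58 and 3.16 CPM and VGLL1, a cofactor of TEAD factors, 3.22, 2.396 and 3.05 CPM, the last from 0 counts in all off-drug and parental libraries. IYD, a thyroid deiodinase, reached 1.23, 1.02 and 1.397 CPM. AGR3 and PTCHD4 were the 2 genes at 1 CPM or more in every parental library, at 4.78, 4.29 and 4.77 and 4.15, 3.25 and 2.87 CPM. Some others were also present in parental cells: BMP5 at 1.08, 1.12 and 0.894 CPM, near its on-drug level, PRR15L at 0.752, 1.002 and 0.931, and EPHA10 at 1.08, 0.601 and 0.633. An antisense gene of NKX2-1, NKX2-1-AS1, also appeared, but its reads cannot be told apart from those of NKX2-1 because no use of strand is given, and AMY1B shares reads with near-identical copies. Just outside the limit of 3 counts stood VTCN1, with 5 counts as its highest off-drug value, and just outside that of 1 CPM stood POU2AF1, with 0.915 CPM as its lowest on-drug value.

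The stretch of chromosome 19 around CYP2F1 was chosen after its values were seen, and its genes are described without a test. In order along GRCh38 from 40808474 to 41128366, the CYP2 genes that passed the filter were the pseudogenes CYP2T1P, CYP2F2P, CYP2G1P and CYP2B7P, then CYP2F1. CYP2B7P was at 0, 0 and 0.546 CPM off drug and 85.4, 76.1 and 81.2 on drug. CYP2T1P was at 0.357, 0.328 and 0.225 CPM off drug and 10.7, 10.6 and 11.4 on drug. CYP2F2P had 0, 0 and 1 counts off drug and 11, 16 and 13 on drug, and CYP2G1P had 3, 0 and 0 and 17, 18 and 11, under 1 CPM in every library. CYP2S1, the next CYP2 gene tested along the chromosome, was at 40.8, 46.3 and 43.5 CPM off drug and 43.4, 35.4 and 38.1 on drug, and these ranges overlapped. These genes are of the same gene family, in which reads can be divided between similar copies, so single values are uncertain.

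The mirrored rule, near 0 on drug and at least 1 CPM in each off-drug library, was met by 14 genes, 10 of them protein-coding and 3 on the lists. In parental cells 0 of the 14 had at most 3 counts in every library, and 5 were at 1 CPM or more in each; the difference from the appearing genes was not tested. TNFRSF6B, a soluble decoy receptor for FAS ligand, was at 9.72, 9.09 and 7.93 CPM off drug and had 0 counts in all on-drug libraries, at least 110.4-fold lower by the floor of 3 counts, but it lies inside a longer readthrough gene that shares its reads. IL1RL1, the receptor of interleukin 33, was at 1.43, 1.64 and 2.28 CPM off drug and ADGRL4, an adhesion receptor known from endothelium, at 1.43, 1.64 and 1.35 CPM, and both had 0 counts on drug. HSD11B1, which regenerates active glucocorticoid, was at 4.33, 2.78 and 3.44 CPM off drug and 0 on drug. The others named were EYS, MEFV, PLA2G4D, PALD1, SBSN and SIGLEC15, with off-drug levels of 1.11 to 4.95 CPM in single libraries. PKNOX2 stood just outside, with 6 counts as its highest on-drug value.

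**Figure D5:**
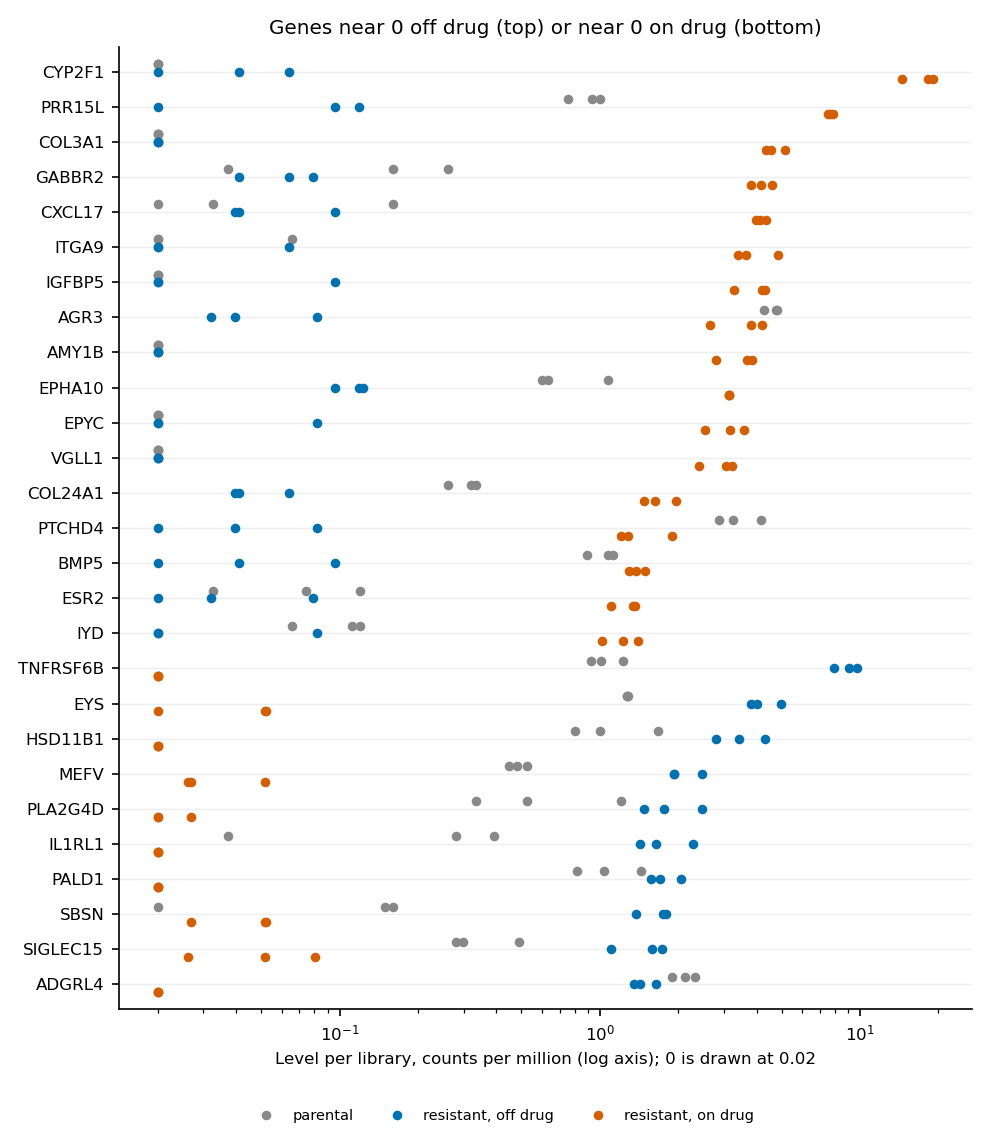
Levels of the 17 named genes that appeared on drug and the 10 named genes that disappeared, in each of the 9 libraries, in CPM on a log axis; each point is 1 library, coloured by group as named in the key, and a level of 0 is drawn at 0.02. On-drug points of the upper 17 rows lie at 1 CPM or above with off-drug points near the left edge, and the order is the reverse in the lower 10 rows; parental points of AGR3 and PTCHD4 lie at or beyond their on-drug points.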

How the data were processed

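Poly(A) RNA of 9 NCI-H358 samples was sequenced with paired reads. Salmon 0.14.1, which estimates counts per transcript, bcl2fastq 2.17, FastQC 0.12.1 and build GRCh38.p13 are listed in the submitters' processing notes. Neither the annotation release nor any use of strand is stated there or in the labels. Deposited by the authors were gene-level estimated counts, left unscaled, and TPM, which adjusts for transcript length and depth. Estimated counts of the same gene family or of overlapping genes can be divided by Salmon among near-identical transcripts.

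Estimated counts were rounded. Log2 fold changes came from 1 fit of all 9 libraries with edgeR 4.0.16 in R 4.3.3, with TMM scaling, filterByExpr (minimum count 10, minimum total 15) and a quasi-likelihood test with 6 residual degrees of freedom; SE is the size of the log2 fold change divided by the root of the F statistic. CPM values are TMM-scaled. Salmon estimates listed at 0 count as 0 counts, and floors cover counting error only. On simulated counts (16863 genes) the fit found 74.2% of genes set to change 1.5-fold, 92.5% at 2-fold and 97% at 4-fold, with 6.4% false calls. Only 67, 67 and 66 genes were changed there, with 1 spread for all genes. In the data 31.4% of genes were called higher and 31.2% lower, so these rates do not carry over and do not test the scaling.

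The members and the lists were chosen with earlier results of these data known. Per list the rule for named genes took up to 4 called genes with the largest change among those whose average log2 CPM reached 1 and whose groups did not overlap, plus the most abundant gene not called; per class, the 8 largest rises and falls; and genes that appeared or disappeared (all on lists, and 12 others by level). DUSP6 and EPCAM were always included. Separation of the groups in called genes named by the rule was fixed by this choice and is no result about them. The text names a selection (a few genes are not reported here), and genes outside the rule are said to be so or are marker genes. Gene positions are from GENCODE release 29 (GRCh38), and promoters from RefSeq (GRCh38.p14), 1 per symbol. Alternatives were other scalings and filters, DESeq2 1.42.0, limma 3.58.1 on log2(TPM + 1) and log2(TPM + 0.1), a fit of the 6 resistant libraries, a replicate block and each library left out. Libraries of a group differed by more than sampling noise, so none was merged.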

Additional observations from a re-analysis of the deposited data

How the results depend on the processing

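The count of 5431 genes called higher was within 1.5 times under every alternative run. The count of 5403 genes called lower was 3585 with library size only, 2995 on log2(TPM + 1) and 2975 on log2(TPM + 0.1), the last 2 over genes whose mean TPM reached 1. At least 2-fold changes numbered 1305 higher and 895 lower on log2(TPM + 1), and 1115 lower on log2(TPM + 0.1), against 2337 and 1963; a pseudocount shrinks changes of low genes by construction. Leaving out 1 library at a time gave genes numbering 4980 to 5172 higher, 4945 to 5180 lower, 2238 to 2438 higher at least 2-fold, 1931 to 1957 lower at least 2-fold, 30 to 41 that appeared and 15 to 20 that disappeared. Counts of genes that appeared or disappeared could not fall here, since each library left out removes a condition of the rule. Genes that appeared on drug numbered 28, or 104 with at most 10 counts off drug, 5 with 0 counts, 69 at 0.5 CPM and 15 at 2 CPM; those that disappeared numbered 14, or 52, 5, 32 and 4. The replicate block gave 5383 genes higher and 5375 lower, 2313 and 1933 at least 2-fold. Deviations of same-numbered off- and on-drug libraries correlated at 0.016, -0.034 and -0.018, so the numbers were not taken to pair the samples. Of 199 called genes named by the rule or added to it, 198 kept call and direction in every setting that tested them. The other 1, WNT7B, lost the call with library size only and on both TPM scales. The 199 include genes that are described above without a test. Among all 240 named genes tested, called or not, the direction was reversed in 26 with library size only. It was reversed in 21 on each TPM scale and in 14 with upper-quartile factors. No called gene changed direction in any setting, so these were genes not called, whose fold changes rest on the scaling. CYP2S1, not called at -0.16, was at 0.1 with library size only, 0.17 on log2(TPM + 1) and 0.18 on log2(TPM + 0.1). Between settings the medians of several lists changed sign, among them signal-regulated factors, WNT proteins, secreted and membrane guidance proteins, peptide hormones, adhesion molecules, developmental signal receptors and G protein-coupled receptors, so no direction is given for these families. Counting only the 250 bases before the start, 6.6% of promoters held the AP-1 motif and 1.54% the E2F motif. With 3 libraries per group, groups of this size were not tested for outlying libraries.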
